A study of Mus musculus with 38 samples.

Results

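H3K27ac peaks of epidermal stem cells (EpdSCs) were compared before SOX9 was switched on (D0) and after 2 weeks of doxycycline (W2). The 2 deposited peak lists were used, out of 14 lists in the series, and they rest on 6 of its 38 samples. The D0 list held 30268 peaks and the W2 list 29081. A W2 peak was called gained when no D0 peak overlapped it by 1 bp or more, and a D0 peak was called lost when no W2 peak did. By this rule 11647 peaks were gained, 40.1% of the W2 list, and 11673 were lost, 38.6% of the D0 list. Genes were then sought whose start site had several gained or several lost peaks within 50 kb, several meaning 3 or more. Of 21938 protein-coding genes, 1739 had several gained peaks (7.93%) and 2286 had several lost peaks (10.4%), and 416 had several of both.

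Animals of the D0 and W2 groups were male mice carrying K14rtTA and TRE-myc-Sox9. In these animals the keratin 14 promoter drives a DOX-dependent activator in the epithelium, which turns on MYC-tagged SOX9 when doxycycline (DOX) is given. DOX was injected at postnatal day 21 and continued in the feed. The W12 list, set beside these groups below, differs in design. Its skin came from newborn pups and was grafted onto immunocompromised (*Nude*) female mice, and DOX was given after the grafts had healed. The D0 cells came from the same genotype and were not induced, so that the transgenes are common to both groups. The W2 cells came after 2 weeks of DOX, so age and DOX exposure also differ between the groups. These cannot be told apart from SOX9 induction, since no list of DOX-treated mice without the *Sox9* transgene was compared. Cells of back skin were sorted at both times as CD49f-high, Ly6A-high and CD34-negative, without CD31, CD45, CD117 and CD140a. The gate selects on the products of *Itga6*, *Ly6a* and *Cd34*, so peaks at these 3 genes are not findings. Histone marks were profiled by MINT-ChIP, a multiplexed chromatin immunoprecipitation with indexed samples, on high and low digests with micrococcal nuclease that were pooled. The 2 replicates of a group were merged before peak calling, and replicate 1 of W2 was sequenced in a library that also carried W12 and was told apart by barcode. There is 1 list per group, so no spread between replicates can be had and no test was made. Confidence intervals (95%, exact, Clopper-Pearson) cover counting error only.

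SOX9 belongs to the HMG-box transcription factors and is needed for the fate of hair follicle stem cells (HFSCs), the cells of the bulge and outer root sheath. EpdSCs of the interfollicular epidermis do not normally make it. H3K27ac is placed by p300 and CBP on the nucleosomes that flank active promoters and enhancers, and H3K4me1 is placed by MLL3 and MLL4 on enhancers that are primed or active. A gained H3K27ac peak therefore marks a region whose acetylation passed the caller's threshold at W2 but not at D0. It does not by itself tell whether the region was inactive before.

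The sequences beneath 2 gained and 4 lost peaks are shown because the loci recur in the results. Each is the highest-scoring gained or lost peak within 50 kb of the named gene, chosen after the values were seen. The 300 bp centred on the summit are given on the plus strand of GRCm38 (mm10), and capitals mark SOX words, ACAATG or ACAAAG in either orientation. The gained windows of *Actn1* and *Sostdc1* hold 1 SOX word each. Of the lost windows, that of *Tgfbr2* holds 1 and those of *Wnt7b*, *Axin2* and *Krt1* hold 0.
*Actn1* gained peak, chr12:80223328-80223627: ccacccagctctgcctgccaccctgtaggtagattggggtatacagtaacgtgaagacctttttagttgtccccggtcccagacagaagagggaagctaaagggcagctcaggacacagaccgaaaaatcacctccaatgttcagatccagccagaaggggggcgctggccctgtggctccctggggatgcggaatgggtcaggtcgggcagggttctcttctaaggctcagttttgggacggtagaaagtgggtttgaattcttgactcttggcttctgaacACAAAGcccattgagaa
*Sostdc1* gained peak, chr12:36289799-36290098: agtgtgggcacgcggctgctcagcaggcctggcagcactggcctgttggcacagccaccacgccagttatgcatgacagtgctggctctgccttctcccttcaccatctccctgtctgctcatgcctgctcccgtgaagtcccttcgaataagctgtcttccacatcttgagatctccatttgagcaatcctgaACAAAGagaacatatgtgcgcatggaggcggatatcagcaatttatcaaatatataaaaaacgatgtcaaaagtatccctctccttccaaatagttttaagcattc
*Tgfbr2* lost peak, chr9:116193860-116194159: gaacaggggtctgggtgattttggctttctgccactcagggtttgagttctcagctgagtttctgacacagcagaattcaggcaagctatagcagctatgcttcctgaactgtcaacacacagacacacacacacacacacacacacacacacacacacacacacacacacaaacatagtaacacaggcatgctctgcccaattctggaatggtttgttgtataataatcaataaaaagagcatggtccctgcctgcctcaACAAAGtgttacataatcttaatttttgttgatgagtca
*Wnt7b* lost peak, chr15:85581050-85581349: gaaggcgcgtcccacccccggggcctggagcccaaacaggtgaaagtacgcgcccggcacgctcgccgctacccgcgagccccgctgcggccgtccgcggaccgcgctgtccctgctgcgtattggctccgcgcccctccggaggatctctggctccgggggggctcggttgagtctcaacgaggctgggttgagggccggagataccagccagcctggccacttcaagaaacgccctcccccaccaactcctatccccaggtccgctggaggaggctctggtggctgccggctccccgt
*Axin2* lost peak, chr11:108920479-108920778: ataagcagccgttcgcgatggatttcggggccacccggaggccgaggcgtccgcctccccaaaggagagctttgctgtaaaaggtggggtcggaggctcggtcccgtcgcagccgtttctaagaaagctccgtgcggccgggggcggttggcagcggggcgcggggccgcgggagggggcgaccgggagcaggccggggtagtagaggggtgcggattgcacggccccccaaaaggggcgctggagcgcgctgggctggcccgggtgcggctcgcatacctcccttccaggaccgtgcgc
*Krt1* lost peak, chr15:101856932-101857231: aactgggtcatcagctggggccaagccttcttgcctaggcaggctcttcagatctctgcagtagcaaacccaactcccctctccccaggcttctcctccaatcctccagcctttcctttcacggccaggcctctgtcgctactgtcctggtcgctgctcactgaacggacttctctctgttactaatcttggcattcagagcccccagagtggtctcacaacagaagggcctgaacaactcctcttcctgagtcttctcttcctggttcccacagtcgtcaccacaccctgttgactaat
The *Actn1* window lies in an intron of that gene. The *Sostdc1* window lies upstream of the gene, in an intron of Gm40392, and the *Tgfbr2* window upstream in an intron of Gm4668. The *Wnt7b* and *Axin2* windows lie within 2500 bp of a start site, at GC contents of 71.0% and 71.3%, and the *Krt1* window is intergenic, 6.29 kb upstream of its gene.

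Gained and lost peaks were weak compared with the peaks that both lists shared. MACS2 gives the fold enrichment of a summit, that is (pileup + 1) over (background + 1), where pileup is the number of fragments over the summit. Where the background is at its genome-wide level these folds fall on steps, from which the pileup was recovered at 95.95% of D0 peaks and 95.8% of W2 peaks. The genome-wide background was 0.501 at D0 and 0.425 at W2, so the D0 list was the deeper, and the smallest pileup called was 4 in both. Gained peaks had a median fold of 4.91 and a median pileup of 6, and lost peaks a median fold of 4.66 and a median pileup of 6. Shared peaks had a median fold of 8.0 and a pileup of 11 in the D0 list, and of 7.72 and 10 in the W2 list. A pileup of 16 or more was reached by 168 gained peaks (1.55% of those with a recovered pileup) and 197 lost peaks (1.83%), against 35.5% and 24.0% of shared peaks in the D0 and W2 lists. Gained peaks were also narrower (median 543 bp) than shared W2 peaks (1110 bp), as lost peaks (421 bp) were against shared D0 peaks (898 bp). Depth also bears on what could be missed: brought to the depth of the other list, 4834 gained peaks (44.7%) and 1255 lost peaks (11.6%) had a pileup of at least 2 times the smallest called there. The shortest peak was 268 bp in the D0 list and 320 bp in the W2 list.

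**Figure D1:**
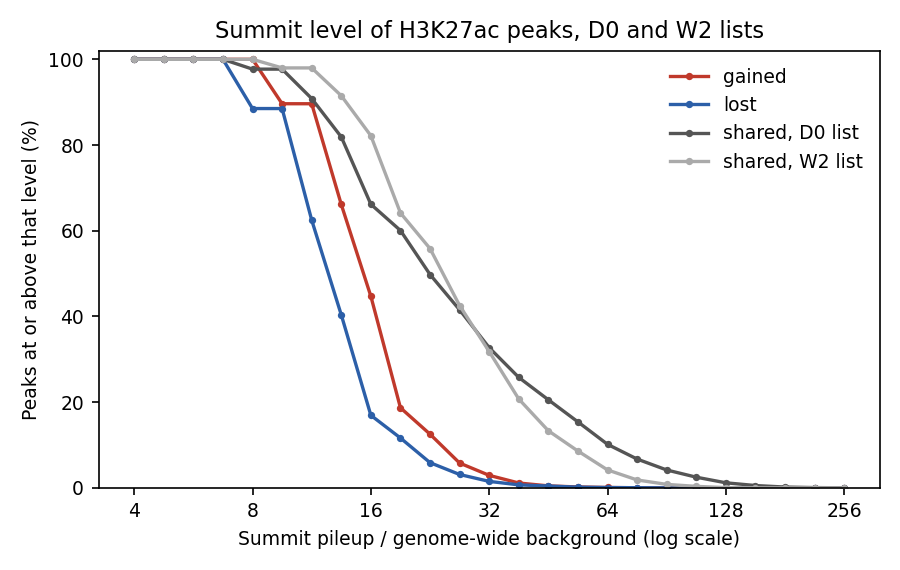
Share of peaks (vertical axis, percent of the class) whose summit pileup divided by the genome-wide background of its list is at or above the value on the horizontal axis (log scale), for gained, lost and shared peaks. At 16 times the background 44.7% of gained and 16.9% of lost peaks remain, against 82.2% of shared peaks in the W2 list and 66.2% in the D0 list. Pileups are whole numbers, so the shares fall in steps that lie at different levels in the 2 lists. At 19.0 times the background 18.7% of gained and 11.6% of lost peaks remain.

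Most changed peaks lay inside or between genes rather than at start sites. Of gained peaks, 22.1% were within 2500 bp of an annotated start, 46.9% were in introns, 28.8% were intergenic and 2.23% were in exons. Lost peaks were divided in the same way, with 23.0%, 48.0%, 26.0% and 2.92%. Shared peaks of the W2 list were at start sites in 56.9% of cases. The median distance to the nearest start was 11246 bp for gained and 10051 bp for lost peaks, against 547 bp for shared W2 peaks. Changed peaks of 1 direction lay together. For 9966 gained peaks another changed peak lay within 50 kb, and the nearest was itself gained in 64.7% of cases (63.8 to 65.7%). For lost peaks the nearest was lost in 64.7% (63.8 to 65.7%), where 49.9% of all changed peaks were gained. Separately called pieces of 1 region can count as neighbours here. With peaks less than 1000 bp apart joined, 9295 were gained and 9307 lost. The shares of neighbours and the counts per gene were not made on joined peaks.

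The other time points were then asked for the same regions. A W6 peak overlapped 40.8% of gained peaks (39.9 to 41.7%) and 24.1% of lost peaks (23.3 to 24.9%). At W1, before the compared time point, 36.4% of gained peaks were already called (35.5 to 37.2%) and 28.9% of lost peaks were still called (28.1 to 29.8%). At W12, taken from grafted skin, the shares were 22.4% of gained and 17.4% of lost peaks. Shared peaks of the W2 list were found in 84.5% (W1), 86.8% (W6) and 66.7% (W12) of cases. The W1 list is the shallowest (background 0.299) and the W6 list the deepest (0.677), so shares are compared between classes within a list. Gained peaks were found more often than lost peaks in each band of pileup. At W6, 24.2% of gained and 16.1% of lost peaks with a pileup of 5 or less were found, and 93.5% (88.6 to 96.7%) of gained and 66% (58.9 to 72.6%) of lost peaks with a pileup of 16 or more. All 3 other lists held 1092 gained peaks (9.38%) and 504 lost peaks (4.32%). None of them held 4658 gained peaks (40.0%) and 6067 lost peaks (52%).

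**Figure D2:**
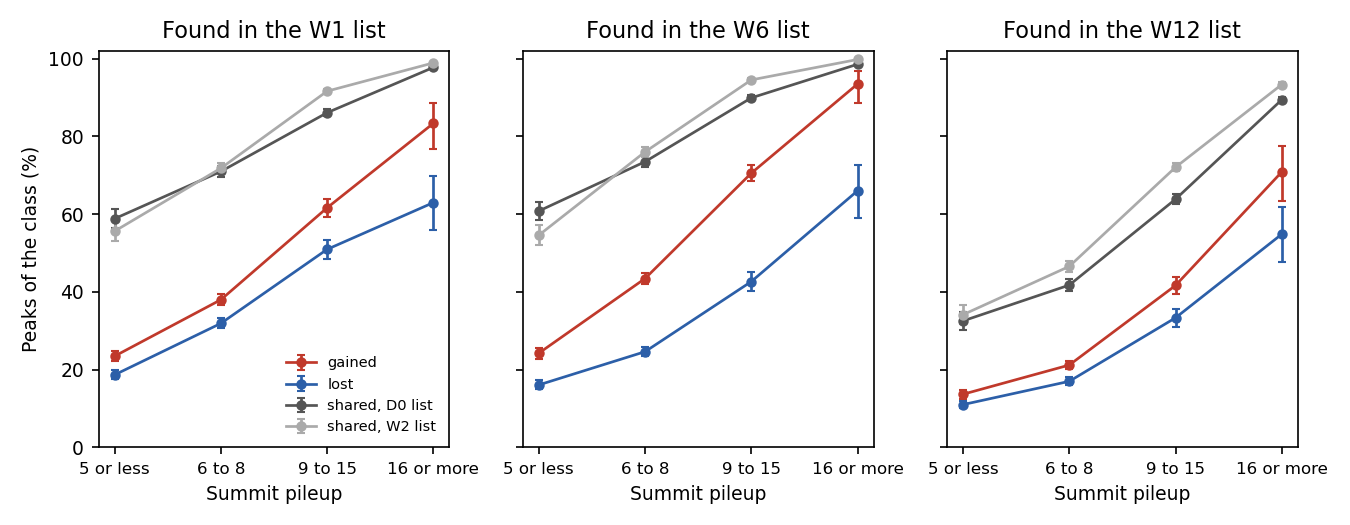
Share of gained, lost and shared peaks (vertical axis, percent) that overlap a peak of the W1, W6 or W12 list, by summit pileup (horizontal axis). Bars are 95% Clopper-Pearson intervals. In each panel gained peaks lie above lost peaks and below shared peaks, and at W6 they run from 24.2% to 93.5% against 16.1% to 66% for lost peaks.

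H3K4me1 was already present at most gained peaks before induction. A D0 H3K4me1 domain overlapped 89.3% of gained peaks (88.8 to 89.9%), a W1 domain 93.3% and a W2 domain 95.9%. Lost peaks ran the other way, with 94.9% in a D0 domain, 92.0% in a W1 domain and 87% (86.1 to 87.3%) in a W2 domain. For shared W2 peaks the shares were 97.2%, 95.3% and 96.5%. A domain at W2 and not at D0 lay over 921 gained peaks (7.91%) and 104 lost peaks (0.891%), and a domain at D0 and not at W2 over 154 gained (1.32%) and 1059 lost peaks (9.07%). Domains at both D0 and W2 lay over 88.0% of gained and 85.8% of lost peaks.

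H3K4me1 domains of cultured EpdSCs were set beside the same peaks, since those cells express SOX9 or its mutants in isolation from the skin. Without DOX 56.6% of gained peaks were in a culture domain (55.6 to 57.5%), and with wild-type SOX9 65.3% were (64.4 to 66.2%). With SOX9 lacking the HMG domain the share was 53.8%, and with SOX9 lacking the transactivation domain 54.9%. For lost peaks the shares were 57.4% without DOX, 53.6% with wild-type SOX9, 54.9% without the HMG domain and 54.8% without the transactivation domain. Shared W2 peaks, as the background, gave 68.1%, 71.2%, 62.3% and 63.3% in the same order. A domain found with wild-type SOX9 and not without DOX lay over 1734 gained (14.9%) and 778 lost peaks (6.66%). The culture lists differ in length and have 1 list per condition.

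SOX words were more frequent under gained than under lost peaks. In the 300 bp around the summit, 37.9% of gained peaks (37.1 to 38.8%), 32.2% of lost peaks (31.4 to 33.1%) and 26.6% of shared W2 peaks held ACAATG or ACAAAG on either strand, against 30.1% of all 59349 peaks of both lists. These words are rich in A and T, and GC content moved with the classes: the median was 47.0% for gained, 48.7% for lost and 53.0% for shared peaks. Within bands of GC content gained peaks had the higher share, but intervals of gained and lost peaks overlapped in 3 of the 5 bands. Between 40 and 45% GC, 44.1% of gained (42.3 to 46.0%) and 39.8% of lost peaks (37.8 to 41.9%) held a word, and between 45 and 50% GC, 38.7% (37.1 to 40.3%) and 34.4% (32.9 to 36.0%). The intervals overlapped between 35 and 40% GC (47.0%, 44.3 to 49.8%, and 42.6%, 38.7 to 46.6%), between 50 and 55% GC (32.1%, 30.2 to 34.0%, and 30.3%, 28.7 to 32%) and between 55 and 60% GC (27.4%, 24.5 to 30.5%, and 22.5%, 20.2 to 25%). The order of lost and shared peaks was not kept: shared peaks of the D0 list had 41.3% between 40 and 45% GC and 37.0% between 45 and 50% GC, above lost peaks. Among peaks over 2500 bp from a start the shares were 39.3% of gained, 33.7% of lost and 33.9% of shared W2 peaks. With a pileup of 16 or more, 44.0% of gained (36.4 to 51.9%) and 23.4% of lost peaks (17.6 to 29.9%) held a word. Shared peaks of that pileup held one in 20.7% (D0 list) and 24.0% (W2 list) of cases. The shares at this pileup were not split by GC content or by distance from a start.

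**Figure D3:**
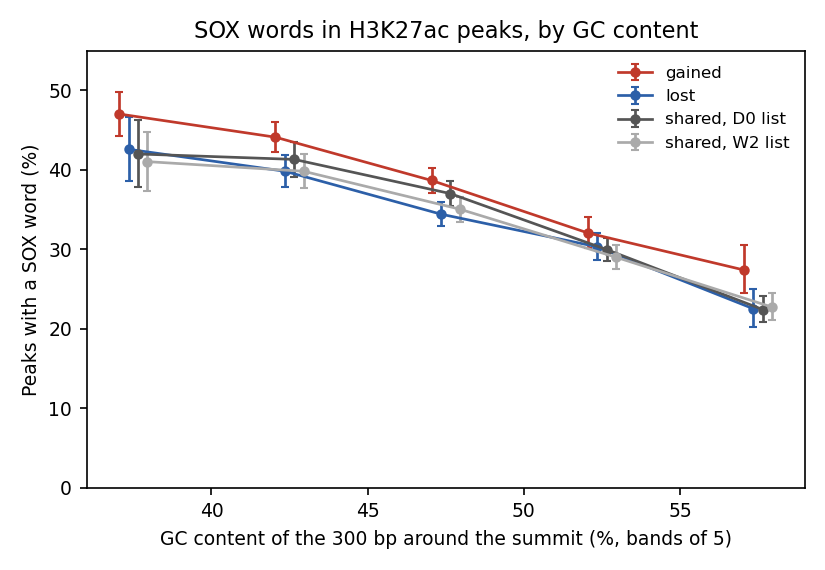
Share of peaks with a SOX word in the 300 bp around the summit (vertical axis, percent) by GC content of that window (horizontal axis, bands of 5 percentage points, points shifted sideways for legibility). Bars are 95% Clopper-Pearson intervals. Gained peaks have the highest share in every band drawn, for example 44.1% against 39.8% of lost peaks between 40 and 45% GC.

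Other words were searched in the same windows on both strands. The GATA word AGATAA was found in 15.1% of gained (14.4 to 15.7%) and 13.6% of lost peaks (13.0 to 14.2%), against 11.6% of all peaks. The AP1 word TGANTCA was found in 11% and 10.4%, against 9.12%, with overlapping intervals, and the RUNX word TGTGGT in 20.5% and 21.6%, against 18.4%. The TEAD word GGAATG gave 17.4% and 16.4%, against 15.3%, and the TCF/LEF word CTTTGAT, which can share letters with a SOX word, 4.90% and 4.33%, against 3.94%. The KLF word GGGNGTGG gave 10.2% and 10.7% against 12%, and the ETS word CCGGAAG 1.67% and 2.26% against 5.05%. The TBX word AGGTGTGA gave 1.35% and 1.68% against 1.34%, and the GRHL word AACNGGTT 2.85% and 2.42% against 2.47%. The long NFI and CTCF motifs were found in under 0.5% of either class. All peaks include many at start sites. Among peaks over 2500 bp from a start, the AP1 word was found in 11.7% of gained, 11.2% of lost and 11.3% and 12% of shared peaks of the D0 and W2 lists, and the RUNX word in 21.3%, 22.6%, 21.6% and 20.4%. The GATA word was found in 16%, 15%, 13.8% and 14.6% and the TEAD word in 17.9%, 16.9%, 17.3% and 17.7%. The TCF/LEF word gave 5.12%, 4.65%, 4.85% and 5.40%, the KLF word 9.43%, 10%, 11% and 11.2%, and the ETS word 1.23%, 1.55%, 2.44% and 2.18%. A word in a window is a match of letters and not a bound site.

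Changed peaks gathered at particular genes. From the rule of gained minus lost peaks, with loci that share most of their peaks counted once, the foremost genes with gained peaks included *Adgra3*, *Actn1*, *Stom*, *Drc3*, *Sostdc1*, *Shf*, *Mrpl20*, *Vangl1*, *Eps8l3*, *Mrtfa* and *Fzd7*. The foremost with lost peaks included *Cish*, *Tgfbr2*, *Rxra*, *Il1rl2*, *Ipmk*, *Wfikkn2*, *U2af1*, *Anxa2*, *Tnfrsf19*, *Pbp2* and *Wnt7b*. Among genes with 3 or more W2 peaks in reach, which alone could have several gained, 20.9% had several gained, and among genes with 3 or more D0 peaks 26.3% had several lost. Peaks in reach include the gained or lost peaks themselves, so such shares are partly set by the filter, here and in the lists below. At the limit, 866 genes had exactly 3 gained peaks and 1959 exactly 2, and 1150 had exactly 3 lost peaks and 2098 exactly 2. Neighbouring genes share peaks: 3851 distinct gained and 4646 distinct lost peaks made up these counts.

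*Actn1* (ENSMUSG00000015143, chromosome 12, 80167547 to 80260371, minus strand) encodes the actin crosslinker alpha-actinin 1, and had 11 gained peaks, 0 lost and 1 shared. Their folds at W2 ran from 4.21 to 15.4, 3 reached a pileup of 16, and 9 of 11 were found at W6 and at W12. The shared peak at its start had a pileup of 9 at D0 and 17 at W2. *Mrtfa*, a coactivator of serum response factor that responds to actin, had 8 gained and 0 lost, of which 1 was found at W6. *Vangl1*, a planar cell polarity gene, had 9 gained and 1 lost.

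*Adgra3* (ENSMUSG00000029090, chromosome 5, 49959956 to 50059006, minus strand), an adhesion G-protein-coupled receptor, had the most gained peaks, 13, with 0 lost. These peaks were weak, with folds from 3.51 to 6.32, all 13 lay in D0 H3K4me1 domains, and 6 were found at W6 and 0 at W12. *Sostdc1* (ENSMUSG00000036169, chromosome 12, 36314139 to 36318452, plus strand), a secreted antagonist of BMP and Wnt signals, had 10 gained and 0 lost peaks with folds from 4.21 to 8.42. Of these 8 were found at W6 and 4 held a SOX word, and a gained peak covered its start site. At *Shf* 10 peaks were gained, shared in part with the neighbouring *Duox1* and *Duox2*, which make hydrogen peroxide, and all 10 were found at W6. At *Stom*, which encodes the membrane protein stomatin, 11 were gained and 8 were found at W6.

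Among the lost loci, *Tgfbr2* (ENSMUSG00000032440, chromosome 9, 116084293 to 116175360, minus strand), the type II receptor for TGFβ, had 12 lost peaks and 0 gained. Their folds at D0 ran from 3.33 to 7.33, and 3 were found at W6. The shared peak at its start had a pileup of 44 at D0 and 19 at W2. *Cish*, a SOCS-family inhibitor of cytokine signalling, had 12 lost and 0 gained, and *Il1rl2*, the receptor for interleukin-36, had 12 lost and 1 gained. *Rxra*, the retinoid X receptor that pairs with the vitamin D and retinoic acid receptors, had the most lost peaks, 15, with 4 gained. *Tnfrsf19*, the TNF-family receptor TROY, had 10 lost and 0 gained, and *Anxa2*, a membrane-binding annexin, 11 lost and 1 gained. At *Pbp2* 11 peaks were lost, shared in part with the neighbouring *Emp1*.

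**Figure D4:**
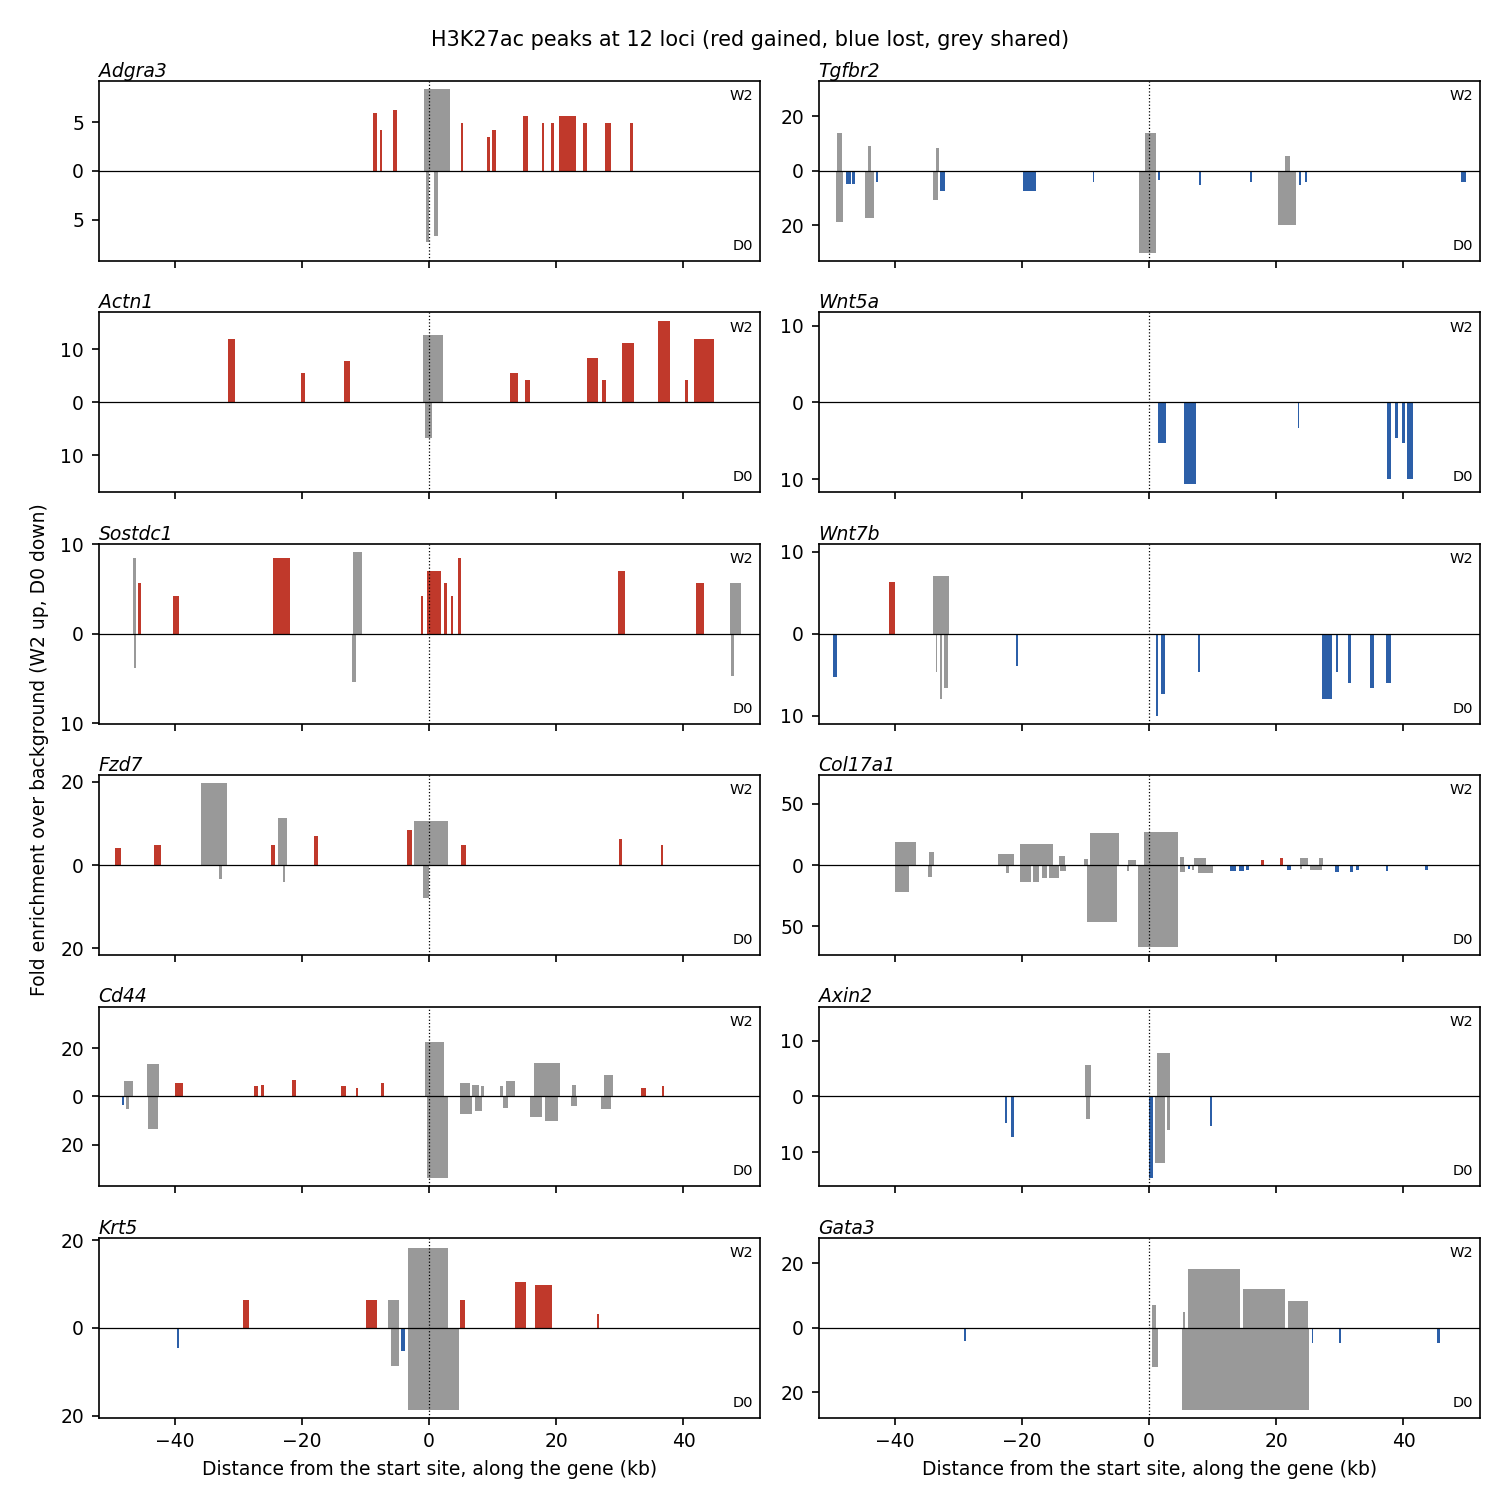
H3K27ac peaks within 50 kb of the start sites of 12 loci chosen after the values were seen. The horizontal axis is the distance from the start site along the gene in kb, the box width is the peak width, and the height is the deposited fold enrichment, W2 upwards and D0 downwards. Red boxes are gained, blue lost and grey shared peaks, for example 13 gained peaks at *Adgra3* and 12 lost at *Tgfbr2*. Vertical scales differ between panels.

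Genes of the HFSC and outer root sheath list gathered gained peaks. Several gained peaks were found at 13 of 27 genes (48.1%) and several lost at 5 (18.5%), with medians of 2 gained and 1 lost peak per gene against 0 and 0 over all protein-coding genes. These genes had more peaks in all: 18 had 3 or more W2 peaks in reach, and the 13 were 72.2% of them, against 20.9% over all such genes. The 72.2% is partly set by the filter. *Lhx2*, *Tcf7l1* and *Cd34* had 0 D0 peaks in reach, so they entered only through gained peaks and then counted as several gained. Of the 14 with 3 or more D0 peaks in reach, 35.7% had several lost, against 26.3% over all such genes. The 13 include *Cd34*, a gene of the sorting gate, with 3 gained and 0 lost. *Vdr*, the vitamin D receptor needed for the hair cycle, had 8 gained and 1 lost, with folds of the gained peaks from 3.51 to 7.72 and 6 found at W6. *Lhx2*, a transcription factor of the bulge, had 5 gained and 0 lost, yet 0 of the 5 were found at W1, W6 or W12. *Tcf7l2* had 5 gained and 0 lost and *Tcf7l1* 3 and 0, both TCF transcription factors of follicle stem cells. *Barx2* and *Cxcl14* each had 6 gained and 2 lost, *Nfix* 5 and 1, and *Nfatc1* and *Tbx1* each 3 and 1. The list is not of 1 direction. *Lrig1*, a brake on EGF receptors, had 7 of each, and *Col17a1*, the hemidesmosomal collagen XVII, had 2 gained and 10 lost. The bulge marker *Krt15* had 1 gained and 3 lost, *Krt17* 5 gained and 6 lost, and *Ptch1* 1 gained and 3 lost. Of 8 bulge markers, 4 had a peak within 2500 bp of the start at both times, and *Cd34*, on which the cells were sorted, had one at W2 alone.

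**Figure D5:**
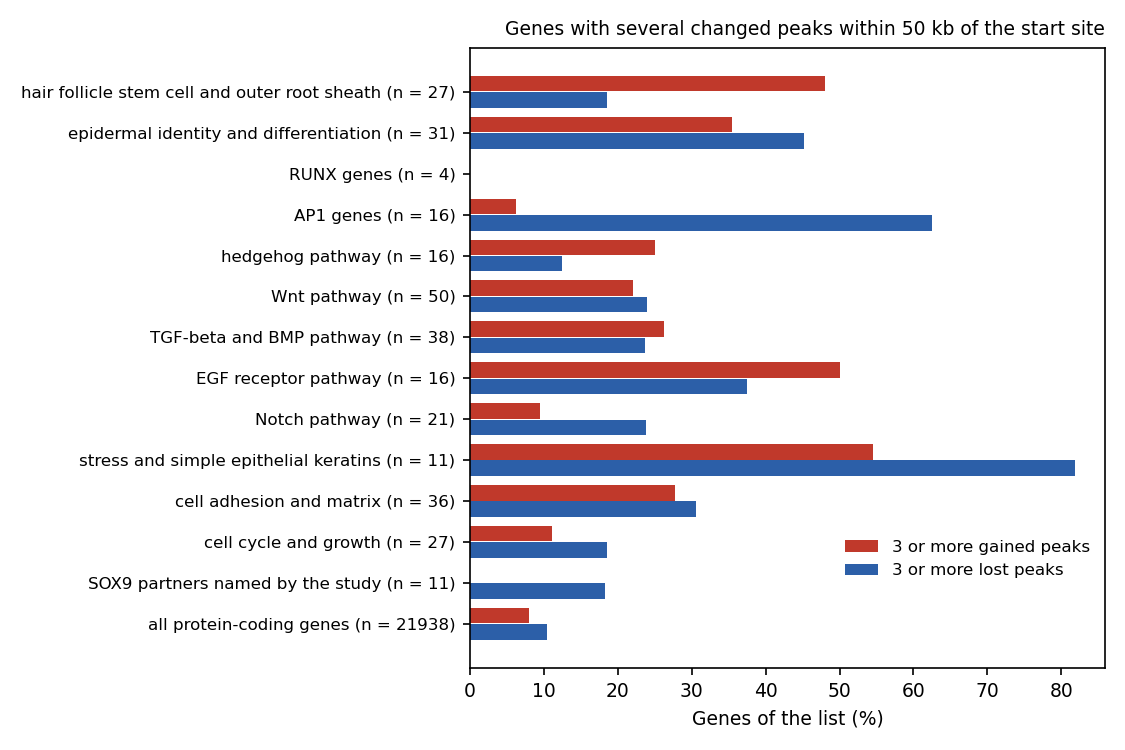
Share of the genes of each list (horizontal axis, percent) with 3 or more gained (red) or 3 or more lost (blue) H3K27ac peaks within 50 kb of the start site, with all protein-coding genes at the bottom (7.93% and 10.4%). The number of genes is given beside each list. AP1 genes have the widest gap towards loss (62.5% against 6.25%), and the hair follicle list, which includes the sorting gene *Cd34*, the widest towards gain (48.1% against 18.5%).

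The epidermal identity and differentiation list had changes in both directions, with several gained peaks at 11 of 31 genes (35.5%) and several lost at 14 (45.2%), where 7.93% and 10.4% of all genes had them. Of its genes with 3 or more peaks in reach 44% and 53.8% had several gained and lost, against 20.9% and 26.3% of all such genes. The 14 include the sorting gene *Ly6a*. Its medians were 1 gained and 2 lost. Suprabasal keratins had lost peaks: *Krt1* had 4 lost and 0 gained, the strongest with a fold of 15.5, and *Krt10* 5 lost and 1 gained. *Grhl3*, which drives the epidermal barrier, had 4 lost and 0 gained, and *Cebpa*, a factor of differentiation, 6 lost and 1 gained. *Gata3* (ENSMUSG00000015619, chromosome 2, 9857078 to 9890034, minus strand) had 4 lost peaks with folds from 4.0 to 4.66 and 0 gained at its outermost start. Within 50 kb of the start of its basic transcript 5 peaks were lost and 1 was gained, where the D0 list held 9 and the W2 list 7. A broad shared peak downstream of its outermost start had a pileup of 37 at D0, and the highest of its W2 counterparts a pileup of 25. *Krt5* had 6 gained and 2 lost peaks, its partner *Krt14* 3 of each, and *Tfap2a* 4 gained and 1 lost. *Klf4* and *Prdm1* had 3 gained and 0 lost each.

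Stress and simple epithelial keratins had changes in both directions. In the type II cluster on chromosome 15, *Krt6a* had 6 gained and 1 lost and *Krt6b* 5 gained and 1 lost, peaks that they share in part with *Krt5*. *Krt8* had 4 lost and 0 gained and *Krt18* 3 lost and 0 gained. On chromosome 11, *Krt16* had 6 of each and *Krt17* 5 gained and 6 lost. The list as a whole had several gained at 6 of 11 genes (54.5%) and several lost at 9 (81.8%), against 7.93% and 10.4% of all genes. All 11 had 3 or more peaks in reach in both lists, and over all such genes the shares were 20.9% and 26.3%. Genes of this list share windows.

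AP1 genes had more lost than gained peaks. These genes encode the FOS, JUN, ATF and MAF leucine zipper factors that bind TGANTCA as dimers. Several lost peaks were found at 10 of 16 genes (62.5%) and several gained at 1 (6.25%), *Mafk*, which had 3 of each. The median was 3 lost and 0 gained. Of the 14 AP1 genes with 3 or more D0 peaks, 71.4% had several lost, against 26.3% over all such genes. *Atf3* had 6 lost and 2 gained, *Fosb* 5 and 0, *Jun* 4 and 1, *Maff* and *Mafg* 4 and 0, *Fosl1* 3 and 0, and *Fos* and *Fosl2* 3 and 2. *Junb* had 0 of either. *Fosb*, *Fosl1*, *Maff* and *Mafg* share peaks with neighbouring genes, *Mafg* with *Notum* of the Wnt list among them.

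Among Wnt genes, 4 ligand genes had many lost peaks and few gained: *Wnt7b* (ENSMUSG00000022382, chromosome 15, 85535437 to 85582473, minus strand) had 10 lost and 1 gained, and *Wnt3*, *Wnt3a* and *Wnt5a* each had 7 lost and 0 gained. At *Wnt5a* all peaks of the D0 list within 50 kb were lost, with folds from 3.33 to 10.7, and 1 of them was found at W12. The negative feedback genes *Axin2* and *Notum* had 4 and 6 lost and 0 gained, and the *Axin2* peak at 0.28 kb from the start had a pileup of 21 at D0. *Rnf43*, of the same list, had 4 gained and 3 lost. Gained peaks outnumbered lost ones at several receptor genes. *Fzd7* (ENSMUSG00000041075, chromosome 1, 59482424 to 59486955, plus strand), a Wnt receptor, had 8 gained and 0 lost, *Lgr4* and *Lgr6*, receptors for R-spondins, had 6 gained and 3 lost and 4 gained and 0 lost, and *Lrp5* had 3 gained and 1 lost. The antagonists *Sostdc1*, *Dkk3* and *Sfrp1* had 10, 8 and 3 gained against 0, 2 and 1 lost. Lost peaks outnumbered gained ones at *Fzd10* (4 lost, 2 gained), *Lrp4* (5 lost, 2 gained) and *Znrf3* (4 lost, 1 gained). Over the list, 11 of 50 genes had several gained (22.0%) and 12 several lost (24.0%), against 7.93% and 10.4% of all genes, and of those with 3 or more peaks in reach 40.7% and 44.4%, against 20.9% and 26.3%. *Ctnnb1*, which encodes β-catenin, had 2 of each.

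In the TGFβ and BMP list, 10 of 38 genes had several gained (26.3%) and 9 several lost (23.7%), against 7.93% and 10.4% of all genes. Of those with 3 or more peaks in reach the shares were 47.6% and 42.9%, against 20.9% and 26.3%. *Tgfbr2* and *Tgfbr3* had 12 and 7 lost against 0 and 1 gained, and the ligand genes *Bmp4*, *Tgfb3* and *Bmp2* had 5, 4 and 3 lost against 0, 1 and 0 gained. Of the other ligand genes, *Tgfb1* had 3 lost and 2 gained, and *Bmp6* had 3 gained and 0 lost. Several activin genes had gained peaks. *Inhbb*, the activin B subunit, had 5 gained and 1 lost with a highest fold of 14.0, *Fst*, which binds activins, had 4 and 0, and the receptors *Acvr1* and *Acvr1b* had 5 and 0 and 6 and 3. All 4 gained *Fst* peaks held a SOX word and were found at W6. *Smad1*, *Smad5* and *Smad6* had 4, 4 and 3 gained against 1, 2 and 0 lost. *Bmpr1a* had 3 of each.

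The EGF receptor list had several gained at 8 of 16 genes (50%) and several lost at 6 (37.5%), against 7.93% and 10.4% of all genes. Of those with 3 or more peaks in reach the shares were 80% and 54.5%, against 20.9% and 26.3%. *Egfr* itself had 9 lost and 4 gained, and *Epgn*, the gene of the ligand epigen, 8 lost and 2 gained. *Ereg*, which shares peaks with the neighbouring *Areg* and *Epgn*, had 3 of each, and *Areg* 3 lost and 1 gained. *Lrig3* had 5 gained and 2 lost, and *Tgfa* 3 gained and 1 lost. In the Notch list, 2 of 21 genes had several gained (9.52%) and 5 several lost (23.8%), against 7.93% and 10.4% of all genes. Of those with 3 or more peaks in reach the shares were 11.8% and 31.2%, against 20.9% and 26.3% of all such genes. The list had 17 genes with 3 or more W2 peaks and 16 with 3 or more D0 peaks. *Jag1* had 6 lost and 0 gained, *Notch1* 5 lost and 2 gained and *Nrarp*, a Notch target, 4 lost and 0 gained, while *Jag2* had 4 gained and 1 lost. In the hedgehog list, 4 of 16 genes had several gained (25%) and 2 several lost (12.5%), against 7.93% and 10.4% of all genes. Of those with 3 or more peaks in reach the shares were 40% and 18.2%, against 20.9% and 26.3% of all such genes. The share with several lost was near that of all genes, and among genes with peaks in reach it was lower. *Gli2*, an effector of the pathway, and *Boc*, a coreceptor, had 6 gained and 2 lost each, *Sufu*, an inhibitor of GLI proteins, 4 and 0, and *Gas1* 3 and 0. *Cdon*, a relative of *Boc*, had 5 lost and 1 gained, and *Ptch1*, the receptor and a target, 3 lost and 1 gained.

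Adhesion and matrix genes were close to evenly divided, with several gained at 10 of 36 genes (27.8%) and several lost at 11 (30.6%), against 7.93% and 10.4% of all genes. Of those with 3 or more peaks in reach the shares were 34.5% and 39.3%, against 20.9% and 26.3%. *Cd44*, the hyaluronan receptor, had 9 gained and 1 lost, *Epcam* 5 and 1, and *Itgb8*, the integrin that releases TGFβ, 4 and 0 with a highest fold of 14.7. Of the gained *Itgb8* peaks 3 were found at W1, W6 and W12. The start site peak of *Itgb8* had a pileup of 6 at D0 and 18 at W2. Junction genes went both ways: *Dsp* had 6 lost and 1 gained, *Cdh1* 6 and 2, *Jup* 5 and 1, *Pkp1* 5 and 2 and *Pkp3* 5 and 4, while *Perp* had 4 of each, *Dsc3* 4 gained and 2 lost, *Dsc2* 2 and 1 and *Cdh3* 1 and 0. *Col17a1* kept a shared peak at its start, with a pileup of 99 at D0 and 37 at W2. These pileups are not scaled for depth, and the highest summits were fewer in the W2 list as a whole. In the cell cycle list, 3 of 27 genes had several gained (11.1%) and 5 several lost (18.5%), against 7.93% and 10.4% of all genes. Of those with 3 or more peaks in reach the shares were 18.8% and 33.3%, near the 20.9% and 26.3% of all such genes. *Ccnd3* and *Cdkn1b* had 4 gained and 0 lost, and *Top2a* 8 lost and 2 gained, near the neighbouring *Tns4* and *Igfbp4*.

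None of the 4 RUNX genes (*Runx1*, *Runx2*, *Runx3* and *Cbfb*) had several gained or lost peaks at the outermost start site. That site decides the count for long genes. *Runx1* (ENSMUSG00000022952, chromosome 16, 92601466 to 92826149, minus strand) has 3 starts of basic transcripts, and within 50 kb of any of them 6 peaks were gained and 1 was lost, where the D0 list held 3 and the W2 list 7. *Trp63* (ENSMUSG00000022510, chromosome 16, 25683763 to 25892102, plus strand), the master regulator of stratified epithelia, had 1 gained and 0 lost at the outermost start, and 12 gained and 2 lost at any of its 3. *Sox9* (ENSMUSG00000000567, chromosome 11, 112782224 to 112787760, plus strand) had 1 gained peak 14.5 kb upstream, with a fold of 10.5 and found at W6 and W12, and 1 lost. The peak at its start was shared, with a pileup of 21 at D0 and 34 at W2. The transgene carries SOX9 coding sequence, so its chromatin cannot be told apart from the exons of the endogenous gene. Of 11 genes for SOX9 partners named by the study, 0 had several gained and 2 several lost, *Arid1b* (5 lost, 1 gained) and *Arid1a* (3 lost, 0 gained). Those were 25% of the partner genes with 3 or more D0 peaks, near the 26.3% of all such genes.

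Shared peaks were compared by summit pileup over the background of their list, which puts both lists on 1 scale. Of 13973 pairs of peaks that overlapped only each other and had a recovered pileup at both times, 957 were 2-fold or more higher at W2 (6.85%) and 1132 were 2-fold or more lower (8.1%). The median log2 ratio was -0.09, and with ratios centred on it 1244 were higher and 906 lower. At a limit of 3-fold, without centring, 172 were higher and 166 lower. Which direction was the more frequent thus depends on the scaling and on the limit. The higher peaks were distal, over 2500 bp from a start, in 71.0% of cases, the lower in 27.8%, and all pairs in 41.3%. SOX words were found in 33.3% of the higher (30.3 to 36.4%), 19.8% of the lower (17.5 to 22.2%) and 26.1% of the remaining peaks. Among distal peaks only the shares were 36.2% (32.6 to 40.0%), 26.7% (21.9 to 31.9%) and 34.4% (33.0 to 35.7%).

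The highest W2 to D0 ratio among shared peaks with a pileup of 20 or more lay at chr1:59446562-59450647, nearest to the start of Gm37737 and among the shared peaks upstream of *Fzd7*. The pileup was 4 at D0 and 27 at W2, a ratio of 7.95 (95% counting interval 2.77 to 31.3). Next came a peak 5747 bp from Gm15716 on chromosome 8 (7 and 44, ratio 7.40, 3.31 to 19.5), and peaks near *Trim2* (6 and 31) and *Car12* (5 and 25). The fifth, near AC102268.2, had 4 and 20. The lowest was 17751 bp from *Slc16a9*, a carnitine transporter, with a pileup of 45 at D0 and 4 at W2, 9.55 times lower (3.48 to 36.6). Peaks at Gm13062 (37 and 4), Mir8120 (51 and 6), *Jrk* (35 and 5) and Gm12981 (42 and 6) followed. Peaks at all 10 places were found at W1 and W12, and at W6 in all but that near *Slc16a9*.

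The 5 gained peaks of highest score lay in introns of *Spidr* and *Fhit*, near *Rpf1*, *Tm4sf1* and 9130214F15Rik, with folds from 21.1 to 30.9. All 5 were in D0 H3K4me1 domains and in the W1, W6 and W12 lists. Of the 5 lost peaks, 1 covered the start of *Phldb2*, with a pileup of 42 over 2059 bp, and was found at W1, W6 and W12, so that W2 alone lacked it. The other 4, near Gm10800, Gm27940, Gm48224 and Gm15739, were 294 to 433 bp wide. Their folds did not fall on the steps of the genome-wide background, and each was found at W6 but not at W1 or W12.

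Marker genes were looked up to check the sort. Of 10 markers of epidermal keratinocytes, 8 had a peak within 2500 bp of the start in both lists, the sorting gene *Ly6a* among them. *Itga6*, also a gene of the sorting gate, and *Trp63* did not. No endothelial or fibroblast marker of 8 each had one. Of 8 melanocyte markers 1 did in both lists (*Pmel*), and of 10 immune markers 1 did at D0 and 0 at W2. *Ptprc*, *Pecam1* and *Pdgfra*, which encode surface proteins sorted against, had 0 in either list.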

How the data were processed

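As the study states, MINT-ChIP reads of sorted EpdSCs were split by barcode, trimmed and aligned to mm10 with Bowtie2. They were freed of duplicates with Picard and merged over replicates with SAMtools. The authors then called H3K27ac peaks with MACS2 and, by their methods, H3K4me1 domains with epic2. The submitters' processing notes list Bowtie2 2.2.9, SAMtools 1.9, MACS2 2.1.1 and, where the methods name epic2, SICER 0.0.36. Settings are not given in the sources used here. Each deposited H3K27ac peak carries a score, the ratio of its summit to the local background (the fold) and a −log10 q. Each deposited H3K4me1 domain of skin carries a p-value. Whether the deposited culture domains, in another layout with a score, a fold and a −log10 q, were called alike is not stated.

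Peaks of 21 chromosomes were used, without 2 mitochondrial peaks per list. Overlap meant 1 bp. Genes, starts (77221, of 55413 genes) and sequence came from GENCODE M21 basic and GRCm38. The outermost 5′ end of the gene record was used, and a peak was within 50 kb by its nearest base. Pileups were recovered where fold times (background + 1) was within 0.002 of a whole number, a tolerance widened in proportion above 10. Ratios of pileups carry exact binomial intervals scaled by the backgrounds. Named genes were the 12 with the largest excess of gained and of lost peaks, genes of 13 lists with several of either, the nearest genes of the 5 strongest gained, lost and most changed shared peaks, and 6 loci of the study. Some of these genes and sequences are not reported here. The members and lists were chosen with earlier results of these data known. Scripts ran in Python 3.11.15 with numpy 2.4.6 and pandas 2.3.3 and were tested on simulated lists. Total H3, and 14 barcode files, were not used here. Read totals per library were not used, and depth was judged from the recovered backgrounds.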

Additional observations from a re-analysis of the deposited data

How the results depend on the processing

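No paired analysis was possible because replicates were merged before peak calling, and for the same reason no replicate could be left out in turn. Of 85 alternative values over 15 results and 20 settings, 38 stayed within the limits set for an unchanged value, 45 moved and 2 reversed. The limits were wider for counts than for shares. A count of 906 lower shared peaks in place of 1132 was labelled unchanged. A share of 42.4% of gained peaks found at W6 in place of 40.8% was labelled moved. The ratio of lost to gained peaks was 1.002 and fell under 1 with peaks above the median score (0.898) and with lists of equal length (0.909). Peaks above the median score left 2107 gained and 1892 lost peaks and 60 and 73 genes with several. Of those gained and lost peaks, 71.4% and 45.2% were found at W6, 91.2% were in a D0 and 91.8% in a W2 H3K4me1 domain, 40.0% and 27.8% held a SOX word, and 77.1% and 65.0% were distal. With an overlap of 50% the values were 42.4% and 27.5% at W6, 90.1% and 87.8% in domains, and 76.9% and 75.9% distal. With lists of equal length, 25.3% of lost peaks were found at W6 and 87.66% lay in a W2 domain. Genes with several gained and lost peaks numbered 652 and 824 within 25 kb, 4369 and 5333 within 100 kb, 3698 and 4384 with several meaning 2, and 873 and 1136 with 4. In place of W6, 36.4% and 28.9% were found at W1, and 22.4% and 17.4% at W12. SOX words were found within 50 bp of the summit in 14.1% and 11.5%, and ACAATG alone in 15.9% and 12.4%. Shared peaks higher and lower at W2 numbered 2526 and 3198 at 1.5-fold and 172 and 166 at 3-fold. They numbered 453 and 1516 by the deposited fold, and 1244 and 906 with ratios centred on the median. The more frequent direction turned at 3-fold and with centred ratios. These turns are not among the values labelled reversed, since each count was labelled alone. Distal shares were 86.1% and 84.6% beyond 1000 bp, and 53.2% and 50.2% beyond 10 kb. The cause of these shifts was not tested. With 1 pooled list per time point, the spread between animals is unknown, and peaks near the smallest pileup called may be missed in either list.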
